A study of Drosophila melanogaster with 10 samples.

Results

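The mitochondrial ribosome is the machine that translates the few mRNAs of the mitochondrial genome, most of which encode subunits of the respiratory chain. Its RNAs are made inside the organelle, but its proteins are encoded in the nucleus, translated in the cytosol, and imported. Some of these proteins descend from the ribosomal proteins of bacteria, while others were added in mitochondria. In Drosophila the genes carry the symbol mRpL for the large subunit and mRpS for the small subunit. All protein-coding genes whose symbol is mRpL or mRpS followed by a number were taken, which gave 73 of 13922 protein-coding genes on chromosomes 2L, 2R, 3L, 3R, X, and 4 of the RefSeq gene table. Of these, 47 had an mRpL symbol and were counted as large subunit genes, and 26 had an mRpS symbol and were counted as small subunit genes. The subunit was taken from the symbol alone, and the place of each protein in the ribosome was not checked. The proteins S12 and S15 carry the older names tko and bonsai in flies, so they fell outside the symbol rule and are described with the other genes of mitochondrial gene expression.

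The data were ATAC-seq of Drosophila S2 cells, an embryo-derived line with properties of blood cells. Cells were treated for 5 days with dsRNA at 10 µg/mL against 1 of 5 targets: LACZ, a bacterial gene that served as the control, GAF, the GAGA factor, NURF301, a subunit found only in the NURF remodeler, BAP170, a subunit found only in the PBAP remodeler, or NURF301 and BAP170 together. Each target had 2 replicates from separate knockdowns, for a total of 10 libraries. In ATAC-seq, the Tn5 transposase cuts DNA that is not covered by nucleosomes, so promoters and enhancers in use appear as peaks, and a summit marks where the signal of a peak, or of a part of it, is highest.

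A single list of 39806 summits in 15615 peaks was made from the 10 libraries combined. It therefore shows where DNA was open across the 5 treatments pooled, and holds no value for a single treatment or replicate. The score of a summit, −log10 of its q value, gives its statistical strength, with a median of 21.9 over the list, a lowest value of 1.30, and a highest value of 80130. The score grows with read depth and DNA copy number as well as with accessibility, and the depth of the libraries is unknown. Of 6 genes that mark fly blood cells (srp, Hml, Pxn, NimC1, eater, and Ppn, chosen after earlier results were known), 5 had a summit near a boundary. The share over all protein-coding genes was 60.0%. NimC1, a phagocytosis receptor gene, had no summit near or inside it. Near a boundary, the strongest scores were 155 at Ppn, 122 at srp, 40.4 at eater, 33.1 at Hml, and 14.0 at Pxn. The highest score among the 6 genes was 577, inside srp, which encodes the GATA factor Serpent.

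Every mitochondrial ribosomal protein gene had open DNA at or near an end. A summit lay no more than 500 bp from the first or last annotated base in 73 of 73 members (100%, 95% Wilson interval 95.0 to 100%), where the background over all protein-coding genes was 60.0%. The same 73 genes each kept a summit when only 250 bp were allowed. A summit lay inside the gene, from its first to its last annotated base, in 57 members (78.1%, interval 67.3 to 86.0%), against a background of 48.7%. When each peak was reduced to its strongest summit, the share of members with a summit inside was 37.0%. The intervals treat genes as independent and cover counting error only. Because the members and the comparison were chosen with earlier results of these data known, no test was run, and all comparisons with other genes are descriptions.

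The members stood close to other genes, so they were also set beside genes of equal crowding. The neighbor number is the count of boundaries of other genes within 1000 bp of either end, with 4 or more put in 1 class. Other protein-coding genes weighted to the members' neighbor numbers had a summit near a boundary in 70.7% of cases, 29.3 percentage points below the members. For a summit inside the gene, the matched value was 56.6%, or 21.5 points below the members. The largest class had a neighbor number of 2 and held 50 members, all with a summit, against 73.0% of the other genes of that class. The shares of other genes were 47.6% at 1 neighboring boundary, 69.0% at 3, and 72.5% at 4 or more, and the 3, 9, and 10 members in these classes all had a summit. A single member, mRpS5, had no other boundary within 1000 bp, a setting in which 27.2% of other genes had a summit.

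**Figure D1:**
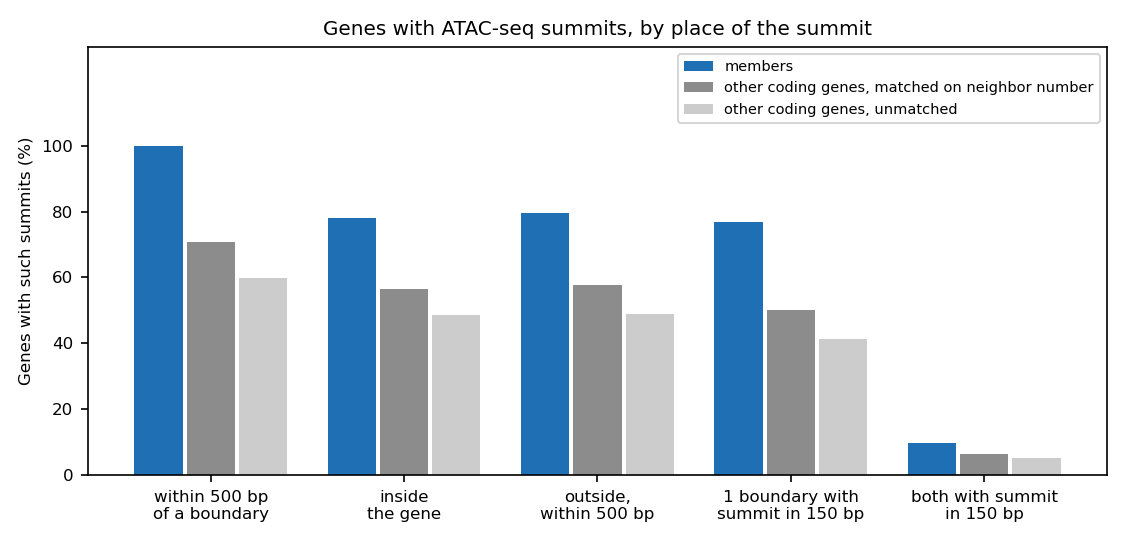
Share of genes (%, vertical axis) with summits in each of 5 places, for the members (blue), other protein-coding genes matched on neighbor number (dark gray), and all other protein-coding genes (light gray); places are near a boundary (up to 500 bp), inside the gene, outside it, at exactly 1 boundary, and at both boundaries (150 bp). The members stood above the matched genes in each place, at 100% against 70.7% near a boundary and 78.1% against 56.6% inside the gene.

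The members are short genes, with a median length of 909 bp against 2176 bp for other coding genes, and 42 of them were no longer than 1000 bp. In such a gene every base lies within 500 bp of a boundary, while a long gene has an interior that the count near boundaries does not reach. When the other genes were matched on length as well as on neighbor number, their share with a summit was 57.4%, 42.6 points below the members. The members also held more summits per gene when genes without any summit were included. Their mean was 2.75 summits near the boundaries, against 1.53 in other genes and 1.84 in matched genes. This gap partly restates the larger share of members with a summit. In the related lists described further on, the mean was 2.98 in cytosolic ribosomal protein genes. It was 2.41 in other mitochondrial gene expression genes and 2.14 in oxidative phosphorylation genes. In all, 201 summits lay near members, of which 91 were inside them. In 20 members there was a single summit, and 14 had 5 or more.

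The members had a summit more often than coding genes in general, as did the related gene lists described further on, but their strongest scores were close to those of other genes with a summit. The highest score within 500 bp of a boundary had a median of 103 over the members, with a middle 50% from 44.1 to 204 and a range from 6.59 to 412. The median was 102.6 over other coding genes with a summit and 106 over the matched ones. The members' median minus the matched median was -2.71, and the 95% interval of the members' median ran from 83.8 to 145. A score at or above the list median was reached by 63 members (86.3%), and by 86.2% of matched genes with a summit. The spread within the family was wide, with 19 members above 200 and 10 below 20.

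**Figure D2:**
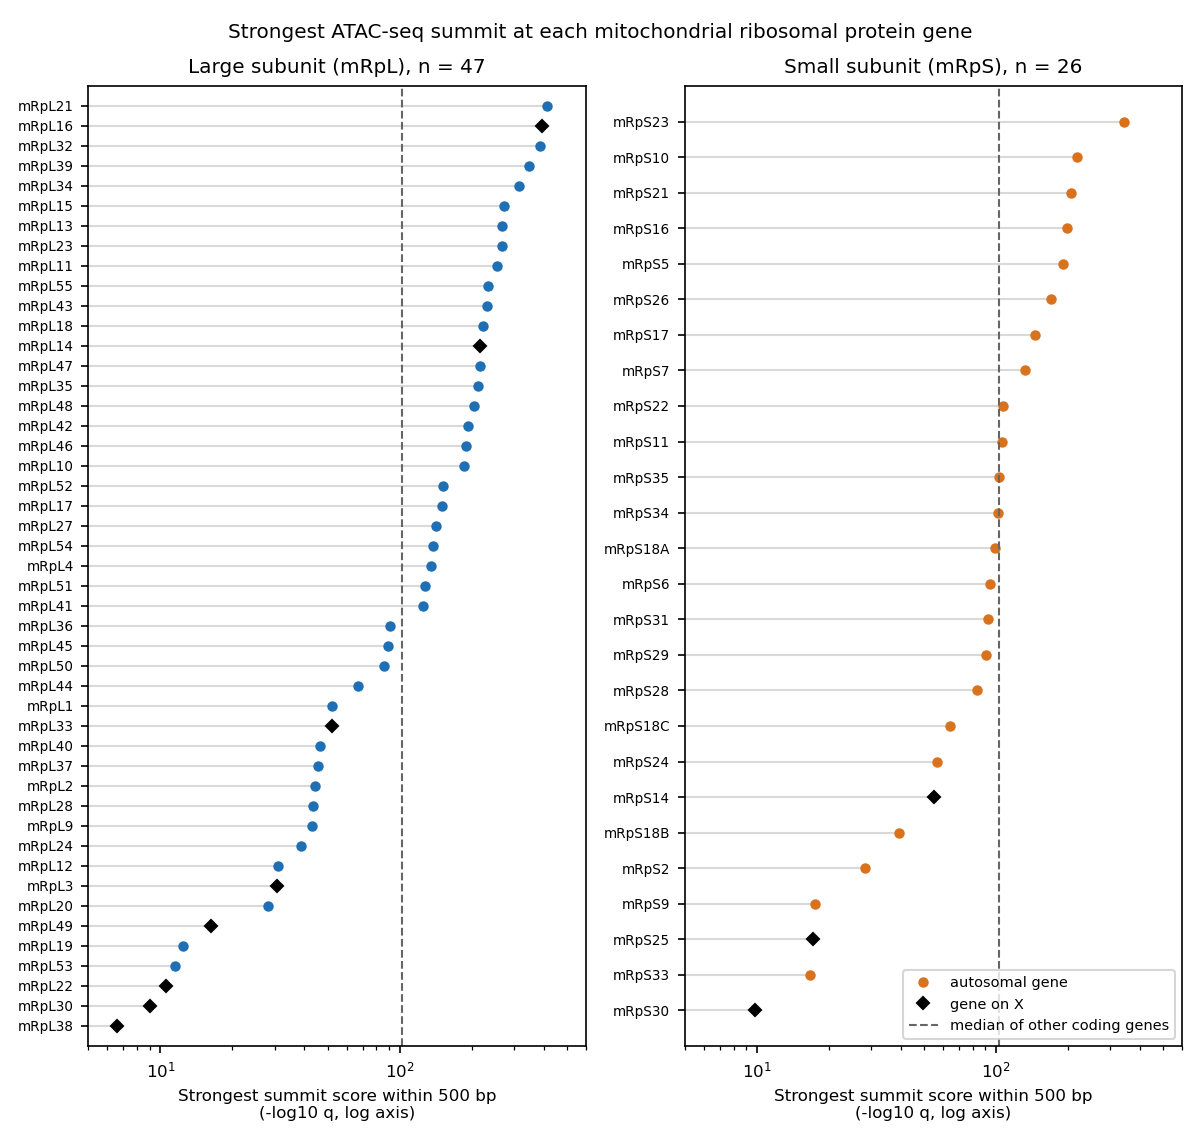
Strongest summit score within 500 bp of a boundary (−log10 q, horizontal log axis) for each of the 47 large subunit genes (left) and 26 small subunit genes (right), with genes on X as black diamonds and the median of other coding genes as a dashed line. The scores ran from 6.59 at mRpL38 to 412 at mRpL21, and most of the lowest were of genes on X.

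Among large subunit genes the median strongest score was 136 (n = 47, middle 50% from 43.8 to 220), and 37 had a summit inside the gene. The small subunit genes had a median of 97.0 (n = 26, middle 50% from 55.6 to 142), and 20 had a summit inside. The ranges overlapped almost fully, from 6.59 to 412 in the large subunit and from 9.87 to 343 in the small subunit. The subunits were also divided by protein number, which separates proteins of bacterial families (up to 36 in the large and 21 in the small subunit) from those specific to mitochondria. The medians were 139 for 28 large subunit genes of bacterial type, 128 for 19 mitochondrion-specific ones, 103 for 14 small subunit genes of bacterial type, and 91.8 for 12 mitochondrion-specific ones. A summit inside the gene was present in 31 of 42 genes of bacterial type (73.8%) and in 26 of 31 mitochondrion-specific genes (83.9%).

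The highest score in the family was at mRpL21, a large subunit gene of bacterial type on 3L (19253290 to 19255061 in dm6). Its only summit near a boundary, at 19255176, was in a peak with 1 summit, scored 412, and lay 115 bp outside the gene's last base and 164 bp from rept, which encodes the AAA+ ATPase reptin. At mRpL16 (X, 1890256 to 1891482), which in bacteria helps to place tRNA in the aminoacyl site, the strongest summit scored 395 and lay 147 bp outside the gene and 159 bp from trr, a histone methyltransferase gene. The other 4 summits of mRpL16 were inside it and far weaker, with scores of 28.8, 8.45, 5.23, and 2.89. Both genes thus had their high score in the space shared with a neighbor.

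The third highest score, 388, was at mRpL32 (3R, 31252872 to 31253686), whose product in yeast and mouse is trimmed by a mitochondrial protease before it joins the ribosome. It lay 101 bp outside the gene, with weaker summits of 151 on its outer side and 117 inside mRpL32. The gene mRpL39 (3L, 14997981 to 14999666), mitochondrion-specific, differed in that its strongest summit, at 347, was 138 bp inside the gene. Its neighbor at that end, the proteasome subunit gene Prosbeta2, was 284 bp from mRpL39. In mRpS23 (2L, 13834250 to 13835072), the highest of the small subunit genes, a pair of summits of 321 and 343 stood outside the last base at 88 and 254 bp, and another of 72.9 was inside.

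The remaining members among the highest 10 were all large subunit genes of bacterial type. They were mRpL34 with a score of 316, mRpL15 with 274, mRpL13 with 269, mRpL23 with 267, and mRpL11 with 256. In bacteria, L11 forms part of the base of the stalk where translation factors bind, and L23 lies at the exit of the tunnel through which the new protein leaves. In each of these 5 genes the strongest summit was outside the annotated gene, from 4 bp at mRpL15 to 274 bp at mRpL13. At mRpL23, a run of 4 summits crossed the last base, with scores of 256 and 264 inside and 258 and 267 outside, so the open region was about equally strong on both sides of that boundary.

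Some members are described by the place of their protein in the ribosome, as examples chosen after their values were seen. Of the stalk proteins, mRpL10 scored 185 and mRpL11 scored 256, but mRpL12, whose product recruits translation factors and has been tied to growth control in flies, scored 31.1 at a single summit 96 bp inside the gene. Of members whose bacterial relatives line the exit tunnel or its rim, mRpL4 scored 136, mRpL22 scored 10.6, mRpL23 scored 267, and mRpL24 scored 38.9. Near the site of peptide bond formation, mRpL2 had 44.1, mRpL3 had 30.6, and mRpL16 had 395. The gene mRpL45, whose mammalian relative anchors the ribosome to the inner membrane, had 89.5, and mRpS29, the relative of mammalian death-associated protein 3, had 90.7.

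The 5 lowest scores were 6.59 at mRpL38, 9.04 at mRpL30, 9.87 at mRpS30, 10.6 at mRpL22, and 11.5 at mRpL53. The first 4 of these genes are on X, and mRpL53 is on 2R. In mRpL38, mRpL30, and mRpL22 the only summit near a boundary was inside the gene, 95, 7, and 91 bp from the first base. At mRpS30, the 3 summits were all outside and similar in score, from 8.56 to 9.87. At mRpL53 the single summit was 104 bp outside the gene and at the same distance from CG33155. In each of the 5 the strongest score was below the list median of 21.9.

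**Figure D3:**
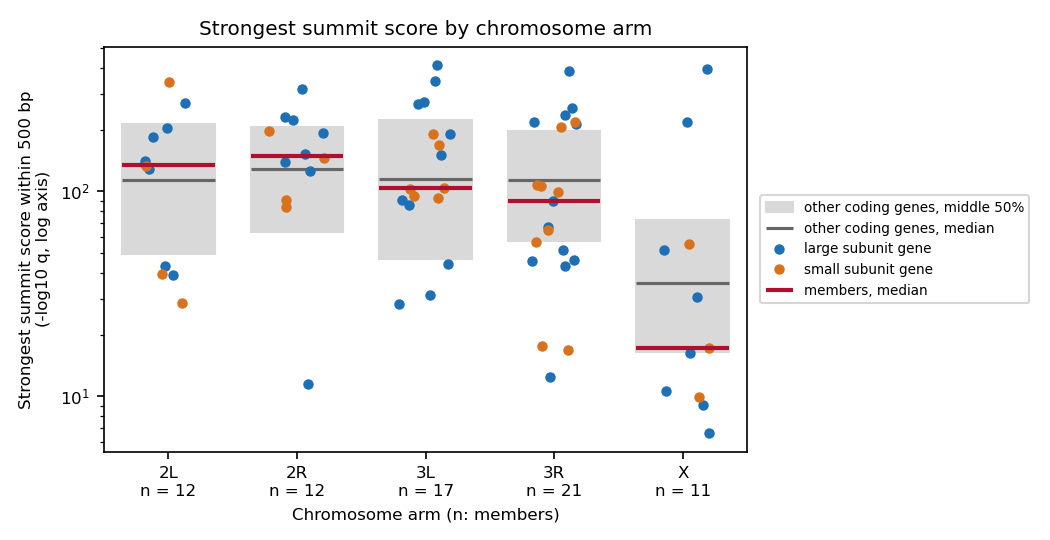
Strongest summit score of each member (−log10 q, vertical log axis) by chromosome arm, with the members' median in red and the median and middle 50% of other coding genes in gray. The X members had a median of 17.2 against 35.6 for other genes on X, while the medians on the other arms were 89.5 to 149.

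The members on X had low scores. The median over the 11 members on X was 17.2, and 6 of the 10 members below 20 were among them. Over the 62 autosomal members the median was 127. Other coding genes showed a gap in the same direction, with medians of 35.6 on X and 117 on the autosomes. On X, genes matched to the members on neighbor number had a median of 34.9, and on the autosomes 124. The 11 scores were 6.59 at mRpL38, 9.04 at mRpL30, 9.87 at mRpS30, 10.6 at mRpL22, 16.3 at mRpL49, 17.2 at mRpS25, 30.6 at mRpL3, 51.9 at mRpL33, 55.3 at mRpS14, 218 at mRpL14, and 395 at mRpL16. Thus 9 of the members on X were below the median of the autosomal members, and mRpL14 and mRpL16 were above it. The strongest summit of mRpL14 was 428 bp outside the gene and nearer to Raf, at 301 bp. When each summit was counted only for the gene with the nearest boundary, mRpL14 scored 86.6 and mRpL16 still scored 395. The X-linked genes of cytosolic ribosomal proteins (median 48.9, n = 15) and of oxidative phosphorylation (32.2, n = 11) were also below their autosomal counterparts, at 169 and 116. Whether the copy number of X in these cells plays a part in the scores was not tested. Among the autosomal arms, the members' medians were 134 on 2L (n = 12), 149 on 2R (n = 12), 103 on 3L (n = 17), and 89.5 on 3R (n = 21), and those of other genes were 113 to 128.

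The open DNA was mostly at a single end of the gene. A summit within 150 bp of a boundary was present at exactly 1 end in 56 members (76.7%, against 50.1% of matched genes), at both ends in 7 (9.59% against 6.31%), and at neither in 10 (13.7% against 43.6%). Because more matched genes had no such summit, their lower share at 1 end does not show that members were more one-sided. Exactly 1 end was marked in 67.6% of other mitochondrial gene expression genes, 65.6% of cytosolic ribosomal protein genes, and 57.0% of oxidative phosphorylation genes. The members with both ends marked were mRpL13, mRpL14, mRpL23, mRpL27, mRpL46, mRpL52, and mRpS35. The 10 with neither were mRpL11, mRpL24, mRpL33, mRpL34, mRpS2, mRpS9, mRpS16, mRpS17, mRpS18B, and mRpS21, all of bacterial type. The gene table gives no strand, so an end cannot be named as the start or the finish of transcription.

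The open end was mostly the one that no neighbor overlapped. In 39 members exactly 1 boundary was covered by another gene (53.4%, against 24.0% of other genes and 31.1% of matched genes), while 31 had no covered boundary and 3 (mRpL13, mRpL53, and mRpS14) had both covered. In 38 of these 39 members (97.4%), the strongest summit was at the boundary that no other gene covers. Among other genes with 1 covered boundary and a summit, this held for 2105 of 2552 (82.5%), and for 84.4% after matching. It also held for 15 of 15 other genes of mitochondrial gene expression (100%), 25 of 27 cytosolic ribosomal protein genes (92.6%), and 23 of 28 oxidative phosphorylation genes (82.1%). The exception was mRpL18 on 2R, where the strongest summit, at 223, lay 422 bp from its last base and 49 bp from the neighboring gene Dgkepsilon. This question was put to the data after they had been examined. At the free end, the space to the next gene had a median of 290 bp over 69 members, and was no more than 500 bp in 63 of them. The same space was not measured in other genes, so these values do not set the members apart.

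**Figure D4:**
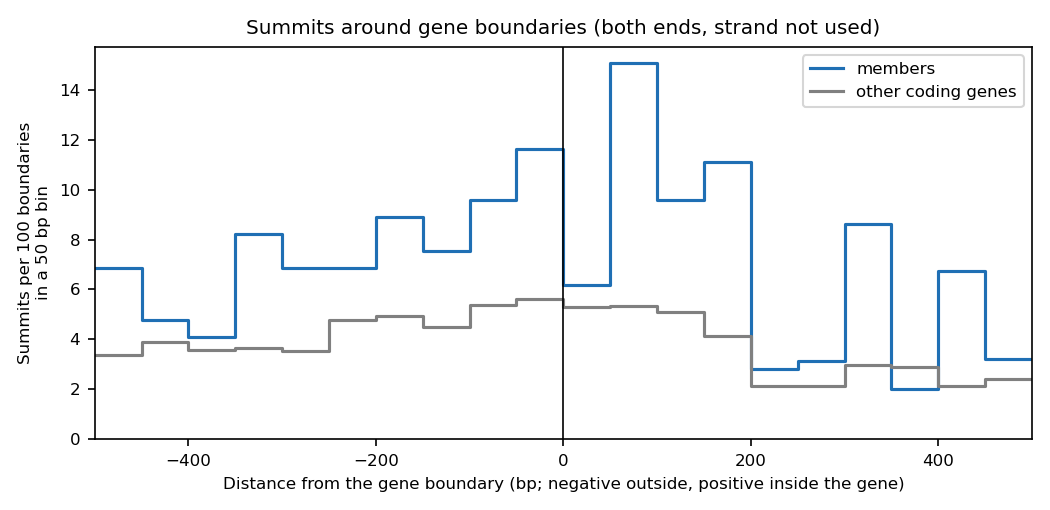
Summits per 100 gene boundaries in bins of 50 bp (vertical axis) by distance from the boundary (bp, horizontal axis, negative outside the gene) for members and other coding genes. The members had a maximum of 15.1 in the bin from 50 to 100 bp inside the gene, where other genes had 5.4.

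Summits per boundary were more frequent in members than in other genes in most bins, including 450 to 500 bp outside (6.8 against 3.4 per 100 boundaries). The highest value of members was a short way inside the gene. From 50 to 100 bp inside the gene there were 15.1 summits per 100 boundaries, against 5.4 in other genes, and in the first 50 bp outside there were 11.6 against 5.6. In the first 50 bp inside, the values were nearly equal, at 6.2 and 5.3. The strongest summit of a member lay a median of 96 bp from the nearest boundary of that gene, compared with 128 bp in all other coding genes with a summit, which were not matched for this value. The median was 62 bp in cytosolic ribosomal protein genes, 93 bp in oxidative phosphorylation genes, and 124 bp in other mitochondrial gene expression genes. The strongest summit was within 50 bp in 19.2% of members and 22.4% of matched genes, and within 100 bp in 50.7% and 42.4%. It was within 100 bp in 60.2%, 52.9%, and 36.4% of those 3 lists in turn. In 15 members (20.5%) it was 51 to 100 bp inside, a place where 8.85% of other genes and 9.41% of matched genes had theirs. These were mRpL4, mRpL12, mRpL17, mRpL19, mRpL22, mRpL38, mRpL40, mRpL44, mRpS11, mRpS18A, mRpS18C, mRpS26, mRpS29, mRpS34, and mRpS35, so the large and the small subunit were both represented. Distance classes were chosen after the profile had been seen.

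The strongest summit was outside the gene in 45 members and inside in 28 (38.4%, against 37.9% of matched genes). It was inside in 13 of 47 large subunit genes and in 15 of 26 small subunit genes. Outside summits had higher scores, with a median of 152 against 60.6 for inside summits, and the ranges, 9.87 to 412 and 6.59 to 347, overlapped. Of all 73 strongest summits, 61 were also within 500 bp of a boundary of another gene, so the open region cannot be assigned to the member alone. This count was not made for other coding genes and is not a trait shown to be particular to the members. In 27 members the boundary nearest to the strongest summit was that of another gene, and the median score was 190. In the 46 members whose own boundary was nearest, it was 90.1. Matched genes had their own boundary nearest in 63.7% of cases, and members in 63.0%. Scores showed only weak relations with other properties across the 73 genes, as Spearman's rho was 0.18 for neighbor number, -0.15 for gene length, and 0.35 for the number of summits in the peak. Genes are not independent replicates.

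When each summit was counted only for the gene with the nearest boundary, a setting added after the data had been seen, 67 of 73 members (91.8%) still had a summit, compared with 60.8% of matched genes. The 6 members that lost theirs were mRpL2, mRpL11, mRpL34, mRpL47, mRpS10, and mRpS16. Some kept only weak summits, with a highest score of 1.31 at mRpS21, near the lowest of the list. Other examples of a low highest score kept by a member were 8.56 at mRpS30, 10.6 at mRpL33, and 10.7 at mRpL24. The median over the 67 members was 74.8, and mRpL21 kept its score of 412. At mRpL11, for example, the strongest summit was 164 bp from the member but 38 bp from HtrA2, a gene for a mitochondrial protease. No summit was the strongest of more than 1 member.

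Individual members showed how the pattern varied. The isolated gene mRpS5 (3L, 24537236 to 24543534), whose bacterial relative takes part in decoding accuracy, is 6299 bp long and had a single summit near its ends, 140 bp inside the first base, with a score of 191. The longest member, mRpS9 (3R, 7889277 to 7902667), spans 13391 bp and overlaps ArgRS-m, the gene of mitochondrial arginyl-tRNA synthetase, and had 1 summit near a boundary, 160 bp inside the last base, with a score of 17.6. At mRpS6 the only summit was 7 bp inside the gene and scored 94.5, and at mRpL1, whose bacterial relative forms the mobile stalk at the tRNA exit site, it was 2 bp outside and scored 51.9. These 4 genes were named after their values were seen. The strongest summit was farthest from its own gene in mRpL20, at 482 bp, mRpS21, at 474 bp, and mRpS22, at 436 bp.

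Some members held several summits inside the gene. Most summits inside the gene were found in mRpS35, with 5, and then in mRpL16, mRpL27, and mRpS18A, with 4 each. Not all of them were strong, as those inside mRpL16 scored from 28.8 down to 2.89. In mRpL27 (2L, 4458595 to 4459638), which in bacteria reaches toward the site of peptide bond formation, 7 summits of 1 peak ran across both boundaries, with scores from 30.8 to 141. The neighbor 230 bp away is RpL27A, the gene of a cytosolic ribosomal protein. The 3 genes of S18 paralogs, mRpS18A, mRpS18B, and mRpS18C, whose products include a protein of the large subunit in mammals despite its name, had strongest scores of 99.6, 39.5, and 64.5. The first of them had 8 summits near its boundaries, the most of any member, with the lowest at 29.8, in a peak of 12 summits.

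**Figure D5:**
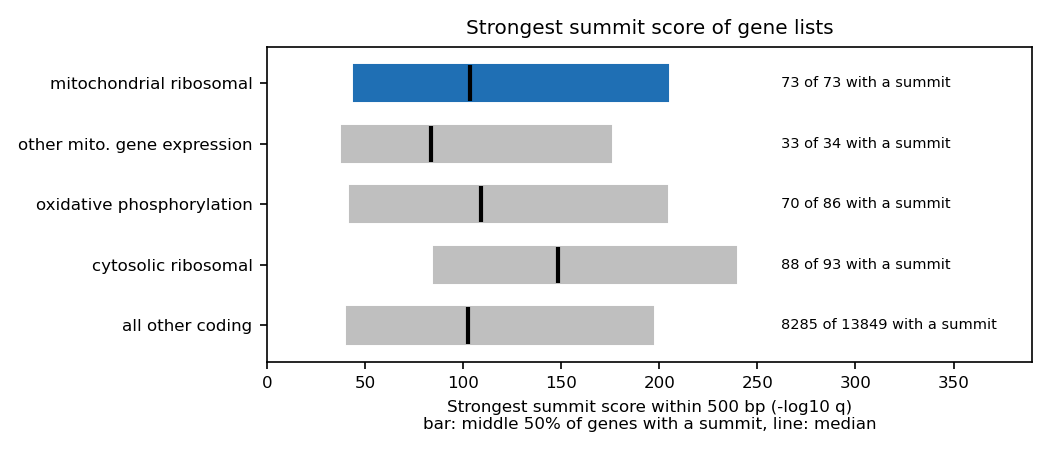
Median (line) and middle 50% (bar) of the strongest summit score within 500 bp of a boundary (−log10 q, horizontal axis) for the members, 3 related gene lists, and all other coding genes, with the number of genes that had a summit. The members' median of 103 was between those of other mitochondrial gene expression genes, 83.4, and cytosolic ribosomal protein genes, 148.

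Other genes of mitochondrial gene expression were open nearly as often. Of 34 genes listed (transcription and translation factors, aminoacyl-tRNA synthetases of mitochondria, and others), 33 (97.1%) had a summit near a boundary and 26 had one inside, with a median strongest score of 83.4. The one without was mRRF1, which encodes the ribosome recycling factor, and no gene matched mEFG2. The highest score was 557 at LeuRS-m, a leucyl-tRNA synthetase gene, followed by 410 at mRF1, a release factor gene, and 368 at PolrMT, the mitochondrial RNA polymerase gene. The small subunit genes outside the symbol rule, bonsai (S15) and tko (S12), scored 97.9 and 75.1, within the middle 50% of the small subunit members. Genes of the DNA packaging protein TFAM and of the transcription factor mtTFB2 scored 95.3 and 10.0.

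The cytosolic ribosomal protein genes, whose products build the ribosome of the cytosol, differed from the members in the place and strength of their summits. Of 93 genes, paralog copies included, 88 (94.6%) had a summit near a boundary, and the median strongest score was 148, with a middle 50% from 85.2 to 239. Summits within 150 bp of both ends were present in 21.5% of them, against 9.59% of the members. Among genes with a summit, the strongest was within 50 bp of a boundary in 40.9% of the cytosolic genes and 19.2% of the members. It was 51 to 100 bp inside the gene in 2.27% and 20.5%. The shares in these places were 21.2% and 12.1% in other mitochondrial gene expression genes, and 32.9% and 7.14% in oxidative phosphorylation genes. Of 86 oxidative phosphorylation genes, whose products work together with the proteins made by the mitochondrial ribosome, 70 (81.4%) had a summit, and the median strongest score was 109. Those differences were not tested.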

How the data were processed

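ATAC-seq libraries came from S2 cells under 5 dsRNA treatments, 2 replicates each. The authors deposited 1 list of 1 bp summits from peaks called on all libraries together, in the dm6 build, with a score that is −log10 of the q value. Tools named in the processing notes of the submitters, with no role stated, are Bowtie2 2.3.5.1, DESeq2 1.26.0, MACS2 2.1.0.20150731, and deepTools 3.1.3. Any Tn5 shift and read filter are not given in the sources used. All summits were used. Depth per library is unknown, and treatments could not be compared.

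Gene boundaries came from the RefSeq gene table of the same assembly, which gives no strand, exons, or sequence, so planned results on start sites and motifs were not run. Summits within 500 bp of either boundary and inside genes were counted for members and for all other protein-coding genes, matched on neighbor number by weighting the classes. Medians and shares are descriptions. Members and lists were chosen with earlier results of these data known. Counting was checked on simulated summits placed at known genes. Scripts ran in Python 3.11.15 with pandas 2.3.3, numpy 2.4.6, matplotlib 3.10.9, and scipy 1.17.1.

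By rule, the text names the 10 highest and 5 lowest members by strongest score, the 3 with most summits inside (with ties), the 3 whose strongest summit was farthest from a boundary (in place of the start), and paralogs with a letter suffix. Others were named after their values were seen. Alternatives tried were other distances (250 and 1000 bp), a stricter score (the list median or more), 1 summit per peak, and other ways of matching.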

Additional observations from a re-analysis of the deposited data

How the results depend on the processing

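No paired analysis was possible because summits were called from pooled libraries, with no value per replicate. For the same reason no replicate could be left out. Results on start sites, strands, and promoter motifs were planned and not run, as the table used here has no strand or sequence. Of the alternatives, 37 moved a value by less than its interval and 10 moved it further. Some of the 37 could not move. The share with a summit inside the gene does not depend on the distance from a boundary, so 250 and 1000 bp left it unchanged. The share near a boundary was already 100%, so it could not change at 1000 bp or without X. The share of members with a summit near a boundary was 91.8% with the strongest summit of each peak, 86.3% with summits at or above the median score, and 91.8% with each summit counted for the nearest boundary only. The share with a summit inside was 37.0% and 60.3% under the first 2 of these. The matched difference in the share was 35.1 points at 250 bp, 42.6 with gene length matched, and 31.0 with the nearest boundary only, and ranged from 24.4 to 42.6 over all alternatives. The median strongest score was 74.8 with the nearest boundary only. The matched difference in that score changed sign, from -10.4 to 6.25, within its interval. Among members with 1 covered boundary, the share at the free end was 100% at 250 bp, 89.7% at 1000 bp, 94.3% with the strongest summit of each peak, and 97.1% with summits at or above the median score. Counting for the nearest boundary, leaving out X, matching on chromosome, and the settings for the free end and for 51 to 100 bp were chosen after seeing the data. The score depends on pooled depth, which is unknown, so it ranks summits only within the list.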

Other observations

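Some members share a narrow gap with a gene of another mitochondrial protein, named here after their values were seen. The gene mRpL55 stood 94 bp from ATPsynD, which encodes a subunit of ATP synthase, and a summit in that gap, 67 bp outside mRpL55, scored 140. The strongest summit of mRpL55, at 235, was at its other end, 56 bp from cdi. The gene mRpL35 stood 191 bp from Mitofilin, which encodes an organizer of the inner membrane, and its strongest summit, at 213, lay 290 bp from mRpL35 and 98 bp from the nearer boundary of Mitofilin, beyond the gap. The strongest scores, 235 and 213, were above 103, the median of the members' strongest scores. The summit of 140 was not the strongest of mRpL55, and the median over all summits near members was 52.6. How often other genes of mitochondrial proteins are neighbors of each other was not tested.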
